A study of Homo sapiens with 8 samples.

Results

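The phosphorylation state of the translation factor eIF2-alpha is set by 4 kinases and by a phosphatase built from a regulatory and a catalytic subunit, and the genes of this machinery are described here in 2 human thyroid carcinoma lines. The genes were taken by name and not by a cut on their values, with earlier results of these data known. They are the regulatory subunit genes PPP1R15A and PPP1R15B, the catalytic subunit genes PPP1CA, PPP1CB and PPP1CC, the substrate gene EIF2S1, and the kinase genes EIF2AK1, EIF2AK2, EIF2AK3 and EIF2AK4. All 10 were among the 12715 genes listed in either line's table, and all 10 were among the 10698 listed in both. RNA was measured by poly(A) RNA sequencing in CAL-62 cells under THZ1, CAL-62 cells under the vehicle DMSO, BCPAP cells under THZ1 and BCPAP cells under DMSO, with 2 libraries in each of the 4 groups. THZ1, a covalent inhibitor of the transcription kinase CDK7, was given at 100 nM for 6 h, and the study's question was the response of each line to it. The labels call both lines anaplastic, although BCPAP is widely listed as a line from a papillary carcinoma, and the labels name no introduced gene or deletion. Medium and serum differed between the lines, and these cannot be told apart from the line. The labels do not tell whether replicates are separate cultures, and p-values cover the spread of these libraries alone, possibly a technical one.

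Phosphorylated eIF2-alpha blocks its own exchange factor, eIF2B, which lowers the supply of initiator tRNA for most mRNAs while a few, such as the one for the transcription factor ATF4, are translated more. The kinases answer different stresses: EIF2AK1 (HRI) to heme shortage and mitochondrial stress, EIF2AK2 (PKR) to double-stranded RNA, EIF2AK3 (PERK) to unfolded proteins in the endoplasmic reticulum, and EIF2AK4 (GCN2) to amino acid shortage. PPP1R15A (GADD34) is the stress-induced subunit that brings protein phosphatase 1 to eIF2-alpha and closes a feedback loop, because its gene is a target of ATF4 and CHOP. PPP1R15B (CReP) serves the same purpose without stress.

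The sequences before the start sites of both regulatory subunit genes are shown because these were the only genes of the 10 with a negative difference between THZ1 and DMSO in CAL-62 under the authors' scaling. They are the 250 bases upstream of the start in RefSeq (GRCh38.p14), printed 5′ to 3′ on the gene's own strand, and a window was found for 8 of the 10 genes. PPP1R15A has its window at chr19:48872171-48872420 on the plus strand, with the cAMP response element TGACGTCA and the TATA box TATAAA in capitals. For PPP1R15B it lies at chr1:204411818-204412067 on the minus strand, with a C/EBP-ATF response element, searched as TGATGNAA, and a CCAAT box in capitals.
PPP1R15A: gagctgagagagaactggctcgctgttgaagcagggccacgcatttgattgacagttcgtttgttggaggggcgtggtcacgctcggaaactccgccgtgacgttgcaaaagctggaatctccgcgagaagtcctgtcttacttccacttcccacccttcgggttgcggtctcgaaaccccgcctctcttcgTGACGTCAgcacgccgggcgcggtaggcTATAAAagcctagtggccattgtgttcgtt
PPP1R15B: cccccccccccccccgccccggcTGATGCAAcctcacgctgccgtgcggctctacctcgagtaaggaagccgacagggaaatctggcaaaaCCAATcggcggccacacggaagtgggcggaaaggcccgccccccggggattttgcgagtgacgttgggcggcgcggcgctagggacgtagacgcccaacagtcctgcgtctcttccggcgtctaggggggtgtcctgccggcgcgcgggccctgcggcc

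Motifs were searched on both strands. TGACGTCA begins at -58 from the PPP1R15A start and is held by 1.65% of 35116 RefSeq windows of the same length, and TATAAA begins at -30 and is held by 10.7%. Neither was found in the windows of the other genes. TGATGNAA begins at -227 from the PPP1R15B start and occurs in 3.14% of all windows and in no other window of the genes described here. CCAAT, held by 32.0% of all windows, was found in PPP1R15B, PPP1CC, EIF2AK2 and EIF2AK3, and the GC box GGGCGG, held by 42.6%, in PPP1R15B, PPP1CC, EIF2AK2 and EIF2AK4. The interferon-stimulated response element, held by 3.02% of all windows, was in none of the 8 windows, that of EIF2AK2 included. A match describes the letters only and says nothing of binding in these cells.

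Each library had between 16682281 and 19989511 reads in the listed genes. Values are RPKM-type, that is, reads per length of the gene and per library total, so levels can be compared between genes. The 10 genes were measured on 262 to 7917 reads per library, a counting error of 6.18% at the lowest (EIF2AK3) and of 1.12% at the highest (PPP1CA). Of the thyroid markers, PAX8 and HHEX were listed in both lines and NKX2-1 and FOXE1 in BCPAP, whereas TG, TSHR and SLC5A5 were not among the listed genes. None of 6 blood or 5 endothelial markers was listed in either line, and COL1A1 was the only listed marker of 6 for fibroblasts. The second DMSO library of CAL-62 stood apart for PPP1R15A, and the results of PPP1R15A and of the genes nearest to its pattern are given with and without it. Over all 10 genes, the median size of the gap between replicates was taken in log2(value + 1). It was 0.27 in CAL-62 under THZ1, 0.29 in CAL-62 under DMSO, 0.47 in BCPAP under THZ1 and 0.25 in BCPAP under DMSO. For all genes in both tables it was 0.38, 0.26, 0.35 and 0.25 in that order. Such a median does not tell which library of a pair stands apart, nor show a gap held by a few genes.

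PPP1CA and PPP1CC, which encode the alpha and gamma catalytic subunits of protein phosphatase 1, were the highest of the 10 genes by mean level in all 4 groups, and EIF2AK3 was the lowest. PPP1CA averaged 258.8 ± 32.3 in CAL-62 under THZ1, 145.7 ± 8.38 in CAL-62 under DMSO, 154.6 ± 37.6 in BCPAP under THZ1 and 122.1 ± 0.651 in BCPAP under DMSO (SD, n = 2 in each). EIF2AK3 averaged 4.94 ± 2.72 in CAL-62 under THZ1, 4.29 ± 0.307 in CAL-62 under DMSO, 5.74 ± 1.78 in BCPAP under THZ1 and 4.31 ± 0.798 in BCPAP under DMSO (SD, n = 2 in each). PPP1R15A was the gene whose place moved most. By mean level it stood at rank 7 in CAL-62 under THZ1 and at rank 3 in CAL-62 under DMSO, and at rank 6 in both BCPAP groups. In CAL-62 under DMSO its libraries overlapped those of both neighbours, PPP1CC above it and EIF2S1 below it, so this place was not fixed by the replicates. In CAL-62 under THZ1 its libraries lay below those of EIF2AK4 and overlapped those of EIF2AK2.

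**Figure D1:**
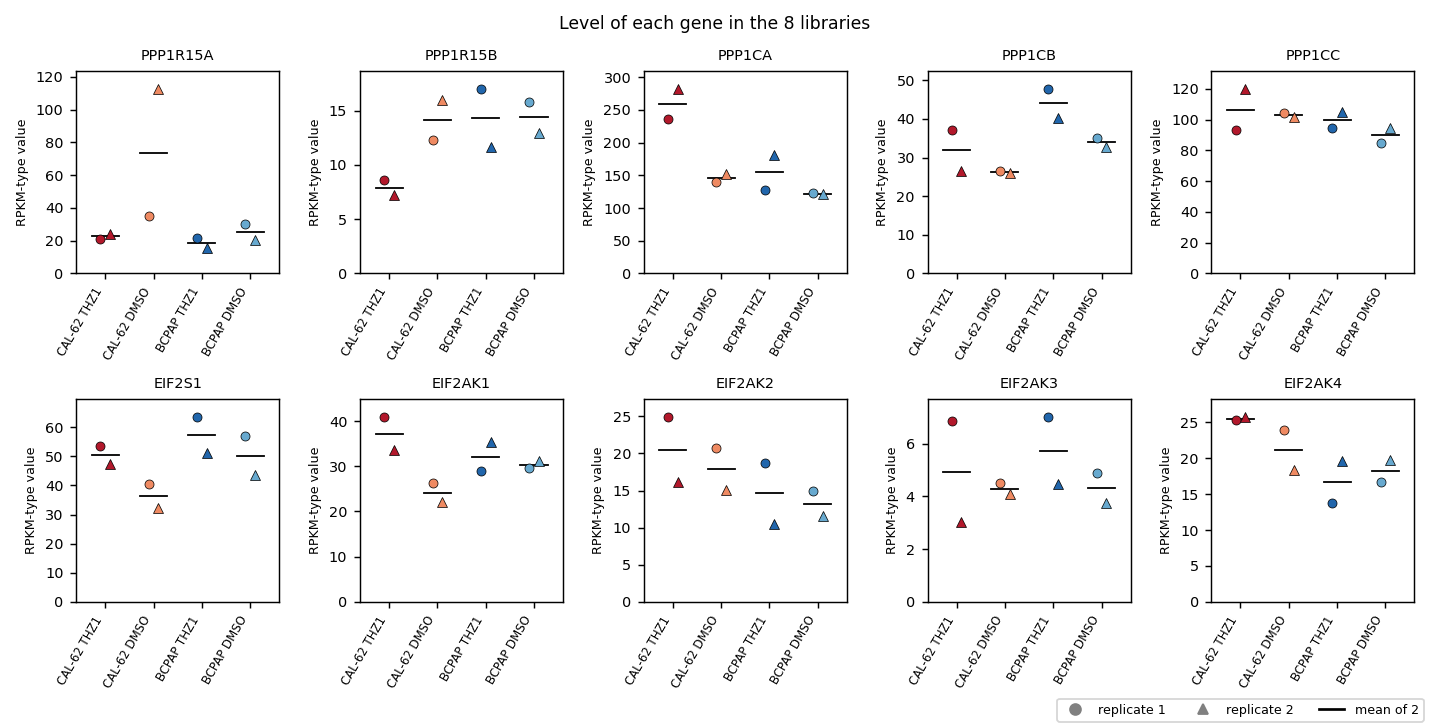
Level of each of the 10 genes (RPKM-type value, linear axis from 0, a scale of its own in each panel) in the 4 groups, CAL-62 THZ1, CAL-62 DMSO, BCPAP THZ1 and BCPAP DMSO; circles are replicate 1, triangles replicate 2 and lines the mean of 2. The PPP1R15A value of the second CAL-62 DMSO library, 112, stands far above its other 7 values, while both CAL-62 THZ1 values of PPP1CA lie above all other PPP1CA values.

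PPP1R15A, the stress-induced regulatory subunit, was lower in both CAL-62 THZ1 libraries than in either CAL-62 DMSO library, but the difference did not pass the test. Its level was 21.2 and 24.2 under THZ1, against 34.8 and 112 under DMSO. The THZ1 libraries lay close together and the groups did not overlap, while the DMSO libraries differed 3.23-fold from each other, and only 0.614% of 11240 genes had a larger excess in the second CAL-62 DMSO library over the first. On the log2(value + 1) scale the difference, THZ1 minus DMSO, was -1.43 (SE 0.49, 95% interval -2.57 to -0.29, limma adjusted p = 0.106). It was -0.69 within replicate number 1 and -2.17 within number 2. Without the second DMSO library it was -0.60 (limma adjusted p = 0.393), and without the first DMSO library -2.26 (limma adjusted p = 0.0653). In bulk RNA, fewer cells that hold a transcript and less of it per cell cannot be told apart, and a fall of all mRNA together would not show in values scaled to a typical gene.

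PPP1R15B, the constitutive regulatory subunit, was likewise lower without overlap in CAL-62 and did not pass the test. It stood at 8.61 and 7.22 under THZ1, against 12.3 and 16.0 under DMSO. Replicates differed 1.19-fold under THZ1 and 1.30-fold under DMSO, less than the distance between the groups. The difference was -0.76 (SE 0.26, 95% interval -1.36 to -0.15, limma adjusted p = 0.108), and -0.58 without the second DMSO library (limma adjusted p = 0.393).

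Of the 10 genes tested in CAL-62, 0 passed the limma test at an adjusted p of 0.05, where 525 of all 11362 genes did (4.62%, of which 66 were higher and 459 lower). At an unadjusted p of 0.05, 4 of the 10 passed (PPP1R15A, PPP1R15B, PPP1CA and EIF2AK1), as did 3418 of all genes. Without overlap between the groups, 5 of the 10 were higher, beside 30.1% of all genes, and 2 were lower, beside 27.4%. The median difference of the 10 genes was 0.21 and that of all genes tested 0.031. Among genes averaging 5 or more, as all of the 10 but EIF2AK3 did, the median was 0.18. The number of all genes passing depended on single libraries: it was 0 without the second CAL-62 DMSO library, 9 without the first, 260 without the first CAL-62 THZ1 library, 181 or 186 without a BCPAP DMSO library and 806 or 811 without a BCPAP THZ1 library. PPP1CA passed in the last case, at adjusted p-values of 0.0464 and 0.0461.

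Among the catalytic subunits, PPP1CA had the lowest adjusted p of the 10 genes in CAL-62 and still missed the threshold. Its level was 236 and 282 under THZ1, against 139.8 and 151.6 under DMSO. Both THZ1 libraries lay well above both DMSO libraries, with 1.19-fold and 1.08-fold between replicates. The difference was 0.82 (SE 0.23, 95% interval 0.29 to 1.35, limma adjusted p = 0.0725), with 0.75 within replicate number 1 and 0.89 within number 2. When ribosomal protein genes were taken as the scale, it turned to -0.12, where the median of all genes was -0.77.

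PPP1CC, the gamma subunit, had 93.1 and 119.8 in CAL-62 under THZ1, against 104 and 101.5 under DMSO. The DMSO libraries fell between the THZ1 libraries, and the difference was 0.038 (SE 0.20, 95% interval -0.43 to 0.51, limma adjusted p = 0.915). PPP1CB, the beta subunit, had 37.2 and 26.58 under THZ1, against 26.52 and 26.09 under DMSO. Its groups did not overlap only by a margin far below the spread under THZ1 (difference 0.25, SE 0.22, limma adjusted p = 0.472).

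EIF2AK1, the heme-regulated kinase, was the kinase gene with the largest difference in CAL-62. It stood at 40.8 and 33.5 under THZ1, against 26.4 and 22.0 under DMSO. All values under THZ1 exceeded those under DMSO, and replicates differed 1.22-fold under THZ1 and 1.20-fold under DMSO. The difference was 0.60 (SE 0.21, 95% interval 0.11 to 1.09, limma adjusted p = 0.112), and it was alike within the replicate numbers (0.61 and 0.58). With ribosomal protein genes as the scale it turned to -0.32.

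EIF2S1, which encodes eIF2-alpha itself, had 53.6 and 47.5 in CAL-62 under THZ1, against 40.6 and 32.4 under DMSO. The groups did not overlap, and the difference was 0.47 (SE 0.23, limma adjusted p = 0.214). EIF2AK4, the amino acid sensor, had 25.3 and 25.7 under THZ1, against 23.9 and 18.4 under DMSO (difference 0.27, SE 0.24, limma adjusted p = 0.485). These groups did not overlap, yet the DMSO replicates were further apart than the group means.

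EIF2AK2, the sensor of double-stranded RNA, had 24.8 and 16.1 in CAL-62 under THZ1, against 20.7 and 15.1 under DMSO (difference 0.17, SE 0.34, limma adjusted p = 0.767). EIF2AK3, the sensor of the endoplasmic reticulum, had 6.86 and 3.01 under THZ1, against 4.51 and 4.07 under DMSO (difference 0.088, SE 0.36, limma adjusted p = 0.889). For both kinases the groups overlapped and the THZ1 replicates were the further apart, 1.54-fold for EIF2AK2 and 2.27-fold for EIF2AK3. The sign of both differences turned when values were scaled by the sum of reads, to -0.24 for EIF2AK2 and -0.27 for EIF2AK3.

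**Figure D2:**
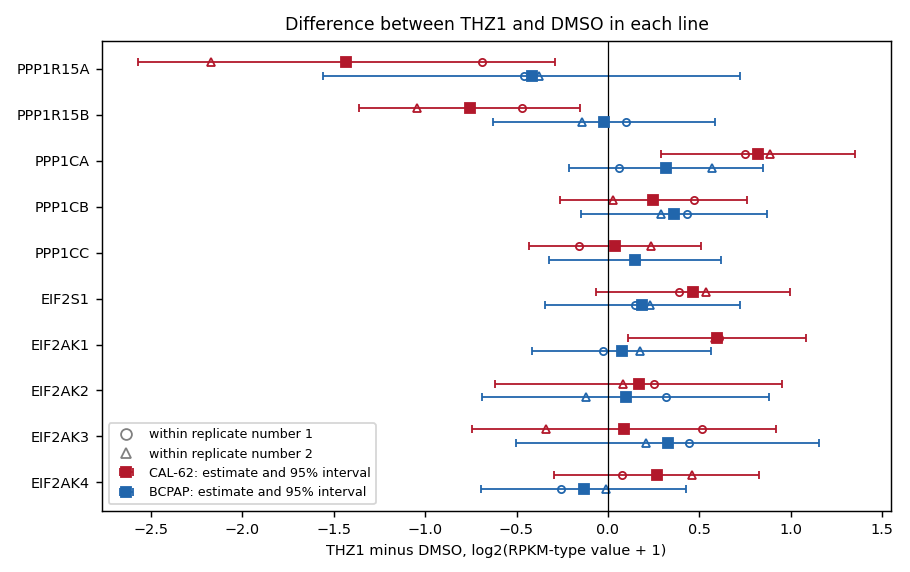
Difference of each gene, THZ1 minus DMSO in log2(RPKM-type value + 1), in CAL-62 (red) and BCPAP (blue); squares are limma estimates with 95% intervals, open circles and triangles the differences within replicate numbers 1 and 2. In CAL-62 the intervals of PPP1R15A and PPP1R15B lie below 0 and those of PPP1CA and EIF2AK1 above it, before adjustment over all genes, and in BCPAP every interval spans 0.

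In BCPAP 0 of the 10 genes passed the limma test, as did 0 of all 11743 genes tested (0%). At an unadjusted p of 0.05, 0 of the 10 and 471 of all genes passed, and a fit on recovered reads called 0 genes as well. Adjusted p-values of the 10 genes ran from 0.932 to 0.993. PPP1CA and PPP1CB were higher without overlap, beside 21.9% of all genes, and 0 of the 10 were lower without overlap, beside 16.4%. PPP1R15A had 21.8 and 15.5 under THZ1, against 30.2 and 20.5 under DMSO. One THZ1 value lay between the DMSO values, and the difference was -0.42 (SE 0.49, 95% interval -1.56 to 0.72, limma adjusted p = 0.938). PPP1R15B had 17.0 and 11.7 under THZ1, against 15.8 and 12.9 under DMSO, so that the THZ1 values enclosed those of DMSO (difference -0.021, 95% interval -0.63 to 0.59).

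PPP1CA in BCPAP was 128 and 181 under THZ1, against 122.6 and 121.6 under DMSO. The DMSO replicates were nearly equal, the THZ1 replicates differed 1.41-fold, and the difference was 0.32 (SE 0.23, limma adjusted p = 0.932). PPP1CB was 47.7 and 40.3 under THZ1, against 35.1 and 32.8 under DMSO (difference 0.36, SE 0.22, limma adjusted p = 0.932). PPP1CC was 94.6 and 105 under THZ1, against 85.0 and 94.7 under DMSO, which overlapped by a narrow margin.

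EIF2S1 was 63.3 and 51.2 in BCPAP under THZ1, against 57.0 and 43.5 under DMSO, with overlap. EIF2AK1 was 29.0 and 35.3 under THZ1, against 29.5 and 31.0 under DMSO, and EIF2AK4 was 13.8 and 19.6 under THZ1, against 16.6 and 19.7 under DMSO. Both kinases overlapped between treatments. EIF2AK2 was 18.8 and 10.5 under THZ1, against 14.9 and 11.5 under DMSO, while EIF2AK3 was 6.99 and 4.48 under THZ1, against 4.87 and 3.74 under DMSO. Again the THZ1 replicates were the further apart for both, 1.79-fold for EIF2AK2 and 1.56-fold for EIF2AK3.

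The response itself was compared between the lines. Of 10653 genes, 0 passed the limma test of the difference (0%), with 562 at an unadjusted p under 0.05, and 0 of the 10 genes passed at either. With a pseudocount of 0.1 in place of 1, 1 gene outside the 10 passed. The response of PPP1R15A in CAL-62 minus that in BCPAP was -1.01 (SE 0.70, 95% interval -2.63 to 0.60, limma adjusted p = 0.843), and -0.18 without the second CAL-62 DMSO library. For PPP1R15B it was -0.74 (SE 0.37, 95% interval -1.59 to 0.12), for EIF2AK1 0.52 (SE 0.30) and for PPP1CA 0.50 (SE 0.32), all with a limma adjusted p of 0.843. A larger response in CAL-62 was therefore not shown for any of the 10 genes. The intervals still allow differences of more than 1 log2 unit for all of them except PPP1CB (-0.83 to 0.61) and PPP1CC (-0.78 to 0.55).

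Between CAL-62 and BCPAP under DMSO, 0 of the 10 genes passed the test, where 1505 of 10653 genes did (14.1%, and 283 to 393 genes without any 1 of the 4 DMSO libraries). At an unadjusted p of 0.05, 1 of the 10 passed, PPP1R15A, as did 3373 of all genes. Without overlap, 4 of the 10 were higher in CAL-62, beside 33.3% of all genes, and 3 were lower, beside 33.3%. This comparison uses the same CAL-62 DMSO libraries as the THZ1 comparison, so the values are set side by side and not as separate support. PPP1R15A had 34.8 and 112 in CAL-62, against 30.2 and 20.5 in BCPAP. The first CAL-62 library was close to the BCPAP values and the second far above them. The difference was 1.30 (SE 0.49, 95% interval 0.16 to 2.44, limma adjusted p = 0.117), with 0.20 within replicate number 1 and 2.40 within number 2. Without the second CAL-62 DMSO library it was 0.47 (limma adjusted p = 0.483), and without the first it was 2.13 and passed (limma adjusted p = 0.0275). The other 9 genes had differences from -0.45 (EIF2S1) to 0.41 (EIF2AK2), with PPP1R15B at -0.028 and EIF2AK3 at 0.0027.

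Ratios of the genes within a library do not depend on how the library was scaled, and they are given as values with no test. PPP1R15A over PPP1R15B was 2.46 and 3.35 in CAL-62 under THZ1, 2.83 and 7.04 in CAL-62 under DMSO, 1.28 and 1.33 in BCPAP under THZ1 and 1.91 and 1.58 in BCPAP under DMSO. Treatments overlapped in CAL-62 and did not in BCPAP, and every CAL-62 library lay above every BCPAP library. Without the second CAL-62 DMSO library, log2 of this ratio differed by 0.020 between THZ1 and DMSO in CAL-62, against -0.64 with it.

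The levels of PPP1R15A and PPP1R15B summed, per 100 of the 3 catalytic genes summed, describe how much regulatory transcript there was beside the catalytic one. This quantity was 8.13 and 7.34 in CAL-62 under THZ1, against 17.4 and 46.0 in CAL-62 under DMSO. It was 14.3 and 8.32 in BCPAP under THZ1, against 19.0 and 13.4 in BCPAP under DMSO. In CAL-62 both THZ1 libraries lay below both DMSO libraries, whichever DMSO library is taken, while the BCPAP treatments overlapped.

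PPP1CA over PPP1CC was 2.53 and 2.35 in CAL-62 under THZ1, against 1.34 and 1.49 in CAL-62 under DMSO, and 1.35 and 1.72 in BCPAP under THZ1, against 1.44 and 1.28 in BCPAP under DMSO. The CAL-62 THZ1 libraries stood apart from the other 6, which lay between 1.28 and 1.72. PPP1CA made up 64.4% and 65.8% of the 3 catalytic genes in CAL-62 under THZ1, against 51.7% and 54.3% under DMSO. In BCPAP its share was 47.4% and 55.5% under THZ1, against 50.5% and 48.8% under DMSO. PPP1CB took the smallest share in all 8 libraries, 10.2% and 6.21% in CAL-62 under THZ1, against 9.81% and 9.35% under DMSO, and 17.7% and 12.3% in BCPAP under THZ1, against 14.5% and 13.2% under DMSO.

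Among the 4 kinase genes, EIF2AK1 took the largest share in all 8 libraries and EIF2AK3 the smallest. The share of EIF2AK1 was 41.7% and 42.8% in CAL-62 under THZ1, against 34.9% and 36.9% under DMSO. In BCPAP it was 42.3% and 50.5% under THZ1, against 44.8% and 47.0% under DMSO. The CAL-62 groups did not overlap, the BCPAP treatments did, and both CAL-62 DMSO libraries lay below all BCPAP libraries. Summed, the 4 kinase genes stood to EIF2S1, their common substrate, at 1.82 and 1.65 in CAL-62 under THZ1, 1.86 and 1.84 in CAL-62 under DMSO, 1.08 and 1.36 in BCPAP under THZ1 and 1.16 and 1.52 in BCPAP under DMSO. This ratio was higher in every CAL-62 library than in any BCPAP library, with overlap between treatments in BCPAP and a THZ1 range below the DMSO range in CAL-62.

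**Figure D3:**
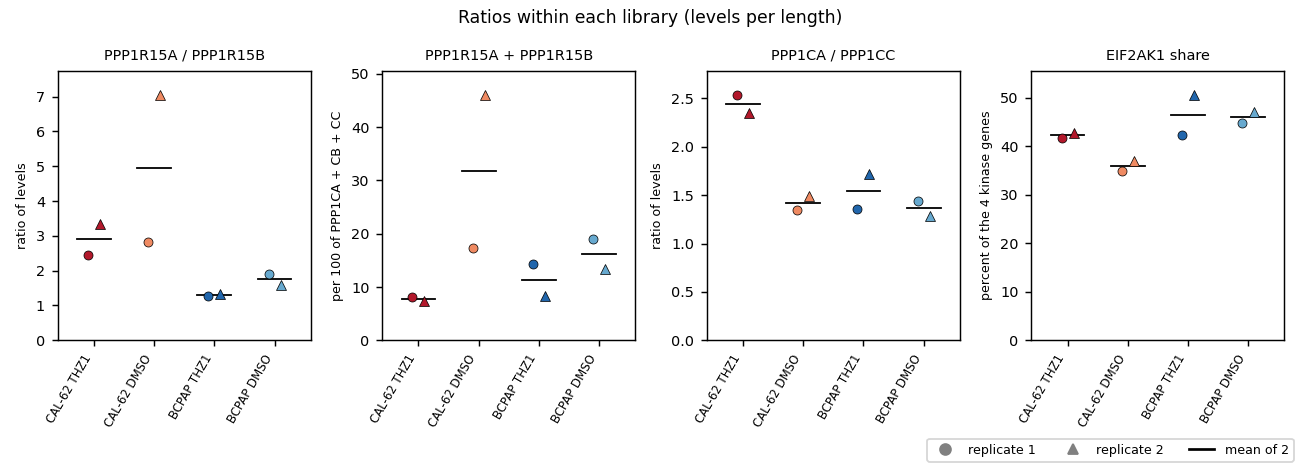
Ratios of levels within each of the 8 libraries: PPP1R15A over PPP1R15B, both regulatory genes per 100 of the 3 catalytic genes, PPP1CA over PPP1CC, and EIF2AK1 as a percentage of the 4 kinase genes; circles are replicate 1, triangles replicate 2 and lines the mean of 2. The CAL-62 THZ1 libraries lie lowest in regulatory per catalytic transcript (8.13 and 7.34), with the second BCPAP THZ1 library close by (8.32). In PPP1CA over PPP1CC the CAL-62 THZ1 libraries lie highest (2.53 and 2.35).

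The genes whose pattern was most like that of PPP1R15A were sought among 7010 genes averaging 5 or more in each line, by Pearson's r over the 8 libraries after each line's mean was removed. They were DDIT3 (r = 0.980), which encodes the transcription factor CHOP, HERPUD1 (0.970), a protein of endoplasmic reticulum degradation, SLC38A2 (0.961), an amino acid transporter, SNAPC4 (0.959), a subunit of the small nuclear RNA activating complex, and FBXO31 (0.953), an F-box protein. All points share the same 8 libraries, and the second CAL-62 DMSO library is the farthest of them. Without it the values were 0.916 for DDIT3, 0.818 for HERPUD1, 0.769 for SLC38A2, 0.932 for SNAPC4 and 0.758 for FBXO31, and these genes stood at ranks 92, 353, 518, 56 and 559. Of the 8 other genes described here that reached this mean (EIF2AK3 did not), PPP1R15B was nearest (r = 0.87) and EIF2AK1 farthest (r = -0.89). Without that library these values were 0.77 and -0.82, and EIF2S1 had -0.11 over 7 libraries, against -0.66 over 8.

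DDIT3, nearest to PPP1R15A, had 2.15 and 2.27 in CAL-62 under THZ1, against 8.89 and 47.3 under DMSO, and 4.79 and 2.78 in BCPAP under THZ1, against 8.06 and 5.81 under DMSO. Both THZ1 libraries lay below both DMSO libraries in each line. In CAL-62 the difference was -2.77 (SE 0.64, limma adjusted p = 0.0522) and in BCPAP -0.75 (SE 0.64, limma adjusted p = 0.932). The CAL-62 difference missed the threshold, and whether it passed depended on the setting. It passed with a pseudocount of 0.1 (limma adjusted p = 0.0480) and with the replicate block (limma adjusted p = 0.00909). The same held when values were scaled by the sum of reads, the upper quartile or ribosomal protein genes. It did not pass under other filters, under median-of-ratios scaling or on recovered reads (limma adjusted p = 0.0607). Nor did it in a fit on the 4 CAL-62 libraries alone (limma adjusted p = 0.0946). Without the first DMSO library the difference was -3.91, and without the second it was -1.62. HERPUD1 had 11.2 and 9.78 in CAL-62 under THZ1, against 18.1 and 49.5 under DMSO (difference -1.44, SE 0.41, limma adjusted p = 0.0746), and without the second DMSO library its difference was -0.74 (limma adjusted p = 0.277). SLC38A2 had 40.0 and 45.0 in CAL-62 under THZ1, against 59.0 and 129 under DMSO (difference -1.03, SE 0.36, limma adjusted p = 0.109), with -0.47 when that library was left out (limma adjusted p = 0.431). SNAPC4 had 9.66 and 11.4 in CAL-62 under THZ1, against 12.1 and 16.0 under DMSO (difference -0.37, SE 0.23, limma adjusted p = 0.304). FBXO31 had 6.69 and 6.42, against 9.27 and 14.9 (difference -0.76, SE 0.26, limma adjusted p = 0.104). For each of these genes the second DMSO library was the highest of the 4 CAL-62 libraries. They were sought for likeness to PPP1R15A over these same libraries, so neither this peak nor lower values under THZ1 are separate support.

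**Figure D4:**
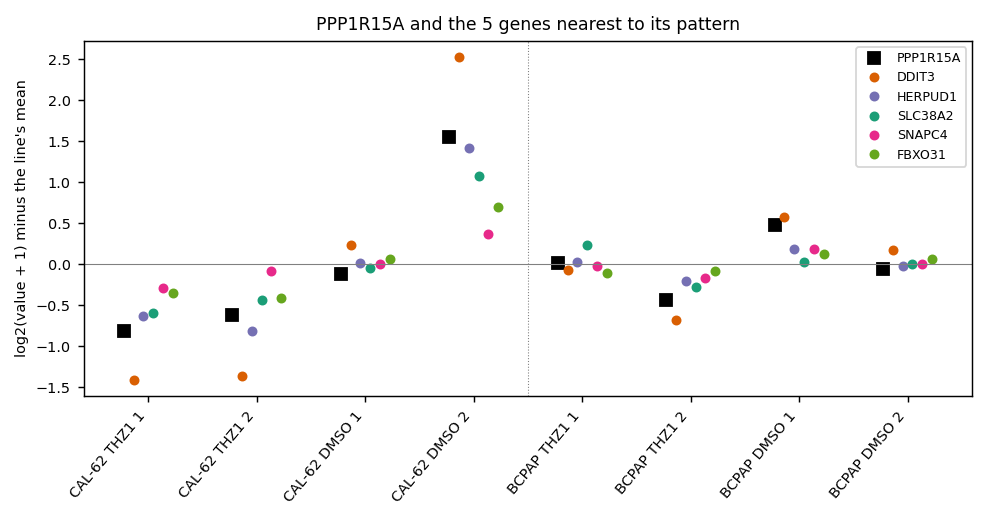
PPP1R15A (black squares) and the 5 genes nearest to its pattern (coloured circles) in each of the 8 libraries, as log2(RPKM-type value + 1) minus the mean of the line's 4 libraries; points are spread sideways for clarity. The second CAL-62 DMSO library holds the highest point of all 6 genes, 1.55 for PPP1R15A and 2.53 for DDIT3. The 5 genes were sought for likeness to PPP1R15A over these libraries, so the shared peak is no separate support.

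Other genes of the pathway were read from 5 lists. ATF4 and its pathway with CHOP, which includes targets for amino acid supply and stress, had 24 of 25 genes listed. In CAL-62, 0 of the 24 passed in either direction, 15 differences were negative and 9 positive, and their median was -0.52, beside 0.031 for all genes. Within replicate number 1 the median was -0.11 and within number 2 it was -1.07. The second CAL-62 DMSO library exceeded the first in 22 of the 24, by a median of 1.18, beside -0.035 for all genes, so this list differs between the same libraries as PPP1R15A does, and its part in the PPP1R15A result was not tested. In BCPAP the median was 0.18, beside 0.067 for all genes and 0.12 for genes averaging 5 or more, and 0 passed.

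ATF4 itself had 82.3 and 149 in CAL-62 under THZ1, against 121 and 219 under DMSO. These groups overlapped, and the difference was -0.55 (SE 0.37, limma adjusted p = 0.340). It was -0.13 without the second DMSO library (limma adjusted p = 0.884) and likewise -0.13 without the first THZ1 library (limma adjusted p = 0.853). ATF3, another stress-induced transcription factor, had 1.25 and 0.937 in CAL-62 under THZ1, against 0.756 and 3.92 under DMSO. Its difference was -0.49 (SE 0.43, limma adjusted p = 0.464) and turned to 0.25 without the second DMSO library, and in BCPAP it stood at 2.99 and 2.80 under THZ1, against 1.56 and 1.29 under DMSO (difference 0.69, SE 0.43, limma adjusted p = 0.932). Between the lines under DMSO, 19 of the 24 differences were positive and 5 negative. Their median was 0.90, beside 0.0091 for all genes. The second CAL-62 DMSO library, which exceeded the first in 22 of the 24, is part of this comparison. Of the 24, 8 passed, 4 higher and 4 lower in CAL-62, beside 14.1% of all genes. Examples were SLC7A5, an amino acid transporter, with 151 and 236 in CAL-62, against 21.3 and 14.4 in BCPAP (difference 3.35, SE 0.45, limma adjusted p = 0.00461), and STC2, a secreted glycoprotein, with 9.92 and 54.5 in CAL-62, against 150.3 and 199.6 in BCPAP (difference -2.82, SE 0.75, limma adjusted p = 0.0446). SLC7A5 passed whichever library was left out, whereas STC2 lost the call in 5 of 8 cases.

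The list of eIF2, eIF2B and ternary complex partners had 14 of 14 genes listed, and 0 passed under THZ1 in either line. Of the 14 differences, 11 were positive in CAL-62, with a median of 0.36, and 11 in BCPAP, with a median of 0.19. The medians of all genes were 0.031 and 0.067, and those of all genes averaging 5 or more 0.18 and 0.12. Between the lines under DMSO, EIF2B1 and EIF2B2, subunits of the exchange factor that phosphorylated eIF2 blocks, were lower in CAL-62, the only 2 of the 14 to pass, beside 14.1% of all genes. EIF2B1 had 31.0 and 27.8 in CAL-62, against 58.1 and 56.0 in BCPAP (difference -0.94, SE 0.19, limma adjusted p = 0.0198). EIF2B2 had 32.1 and 25.7 in CAL-62, against 64.2 and 51.1 in BCPAP (difference -0.97, SE 0.21, limma adjusted p = 0.0252). The libraries of the lines did not overlap for either gene, but both lost the call without any 1 of the 4 DMSO libraries and under the ribosomal protein scale.

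Regulators of the kinases had 12 of 13 genes listed, and 0 passed under THZ1 in either line. Differences were positive for 10 in CAL-62 (median 0.25) and 10 in BCPAP (median 0.17). All genes averaging 5 or more had medians of 0.18 and 0.12. GCN1L1, the activator of the kinase EIF2AK4, was the only 1 of 12 to pass between the lines under DMSO, beside 14.1% of all genes. It was lower in CAL-62, at 34.6 and 29.1, against 53.7 and 55.2 in BCPAP (difference -0.76, SE 0.20, limma adjusted p = 0.0433). The call was lost without any 1 of 6 of the 8 libraries. It was also lost under the ribosomal protein scale (limma adjusted p = 0.482) and without a mean-variance trend (limma adjusted p = 0.0543). Other regulatory subunits of protein phosphatase 1 had 19 of 31 genes listed. None of the 18 tested in CAL-62 and none of the 16 tested in BCPAP passed under THZ1, with medians of -0.15 and 0.053. Of 15 tested between the lines under DMSO, 1 passed and was higher in CAL-62 (PPP1R3B, a glycogen-targeting subunit, difference 2.75). Another 2 passed and were lower (PPP1R13L, -2.69, and PPP1R3C, -1.41), beside 14.1% of all genes passing. PPP1R3C stood at 0.991 and 1.14 in CAL-62, near the lower limit of its table, against 3.58 and 5.57 in BCPAP. Each of the 3 calls was lost in 3 of 8 cases in which a library was left out, and that of PPP1R3C also with a pseudocount of 0.1 (limma adjusted p = 0.0508). In the IRE1 and ATF6 branches of the unfolded protein response, 10 of 11 genes were listed. In CAL-62, 6 differences were positive and 4 negative (median 0.12), and in BCPAP 7 and 3 (median 0.032). Under THZ1, 1 of the 10 passed in CAL-62, beside 4.62% of all genes, and 0 passed in BCPAP. The gene passing was XBP1, the transcription factor spliced by IRE1. XBP1 fell in CAL-62 to 5.97 and 3.82 under THZ1, against 34.3 and 83.8 under DMSO (difference -3.24, SE 0.42, limma adjusted p = 0.0166). It had 23.4 and 16.1 in BCPAP under THZ1, against 32.9 and 24.8 under DMSO, and did not pass there (limma adjusted p = 0.932). XBP1 passed in CAL-62 in 7 of 8 cases in which 1 library was left out, and not without the second DMSO library (difference -2.61, limma adjusted p = 0.131), nor in a fit on the 4 CAL-62 libraries alone (limma adjusted p = 0.0835). Between the lines under DMSO, CREB3 was higher in CAL-62 (difference 1.18) and SEL1L lower (-1.89), of 10 tested, beside 14.1% of all genes passing. CREB3 lost the call without any 1 of the 4 DMSO libraries (limma adjusted p up to 0.104), and SEL1L passed whichever library was left out.

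**Figure D5:**
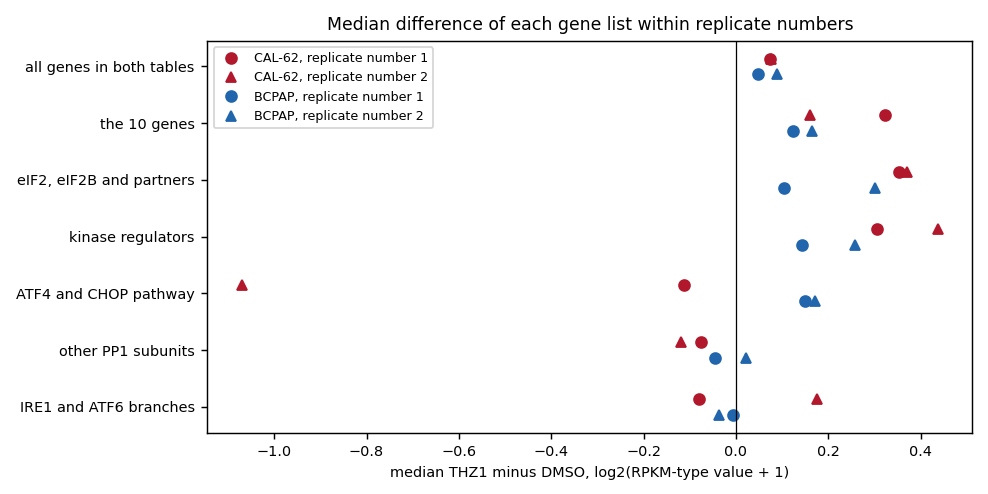
Median difference, THZ1 minus DMSO in log2(RPKM-type value + 1), of all genes in both tables, the 10 genes and the 5 pathway lists, within replicate number 1 (circles) and 2 (triangles) of CAL-62 (red) and BCPAP (blue). The ATF4 and CHOP list of CAL-62 lies at -0.11 within number 1 and at -1.07 within number 2, the widest gap between the numbers in the plot.

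Some of the 10 genes share bases with other genes in RefSeq, and the strand setting of the counting is not given in the sources used here, so reads of such partners cannot be told apart. PPP1CA overlaps RAD9A, EIF2S1 overlaps GPHN, EIF2AK1 overlaps AIMP2, ANKRD61, RN7SL851P and RNU6-218P, and EIF2AK2 overlaps ARL14EPP1 and GPATCH11. EIF2AK4 overlaps H3P38 and LOC124903607, and PPP1CB and EIF2AK3 overlap noncoding genes at their starts. PPP1R15A, PPP1R15B and PPP1CC overlap no annotated gene.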

How the data were processed

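Poly(A) RNA of 8 libraries was analysed. Per the file headers each file holds a gene and a library's value; the authors' deposited values are of the RPKM type, a unit inferred from the values, since neither the labels nor the headers name it. Bowtie2, DESeq2 and hg19 are named in the submitters' processing notes, without roles or versions. Every value of all 12715 genes equalled whole reads over a whole length within 0.02 reads, so reads were recovered. The authors' library totals lay within 4.73% of median-of-ratios size factors over the 8 libraries, and up to 19.5% from the sums of reads. Each table reaches down to a DMSO mean of 1.00, so genes below are outside it.

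limma 3.58.1 (R 4.3.3) was fitted with a mean-variance trend to log2(value + 1), for genes with a mean of at least 1, on all 8 libraries with 4 group means. This scale understates changes of low genes. Genes of 1 line were fitted on its 4 libraries. P-values are two-sided, Benjamini-Hochberg adjusted over all genes, with a threshold of 0.05. The fit was also run on simulated data whose libraries varied independently, which does not cover same-numbered libraries that deviate together. Genes named outside the 10 are ATF4, DDIT3, ATF3, the 5 nearest to PPP1R15A and up to 4 called genes of each list with the largest change, not all of them printed. The genes and lists were chosen with earlier results of these data known. Alternatives were other pseudocounts, filters, scalings, a fit on recovered reads, a replicate block and leaving out each library.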

Additional observations from a re-analysis of the deposited data

How the results depend on the processing

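The labels do not say what a replicate number marks, and same-numbered libraries deviated together with a correlation of 0.47 in CAL-62 and 0.78 in BCPAP, over 2 pairs each. With the replicate block in the model, 4563 genes passed in CAL-62 (54.9% higher, against 12.6% of 525 without it), 5 of the 10 genes among them: PPP1CA (adjusted p = 0.0111), EIF2AK1 (0.0148), PPP1R15A (0.0171), PPP1R15B (0.0226) and EIF2S1 (0.0257). Over all alternatives their adjusted p ran from 0.0111 to 0.668, 0.0148 to 0.553, 0.0169 to 0.393, 0.0226 to 0.393 and 0.0257 to 0.917 in that order. Between the lines under DMSO the block gave 3001 genes, and in BCPAP and in the difference of responses 0.

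The number of genes passing in CAL-62 was 196 with a mean of at least 5, 859 on recovered reads (31.0% higher), 0 in a fit on the 4 CAL-62 libraries alone, 808 under upper quartile scaling, 1509 under the sum of reads (0.663% higher) and 3170 with ribosomal protein genes as the scale (0.126% higher). Leaving out 1 library gave 0 to 811 in CAL-62, 0 to 1 in BCPAP and 283 to 1898 between the lines. The share higher between the lines was 44.7%, 55.9% under the sum of reads and 77.0% under ribosomal protein genes. The number of the 10 genes passing in CAL-62 was 1 under the sum of reads (PPP1R15B, -1.15), 3 under ribosomal protein genes (PPP1R15A, -2.35; PPP1R15B, -1.62; PPP1CC) and 0 to 1 on leaving out 1 library, PPP1CA passing without either BCPAP THZ1 library. Between the lines it was 0 to 1, PPP1R15A. With a pseudocount of 0.1, 1 gene passed in the difference of responses.

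Scaling moved the median of all genes in CAL-62 to -0.33 (sum of reads), -0.14 (upper quartile) and -0.77 (ribosomal protein genes). Relative to that median, PPP1R15A lay between -2.31 and -0.61 and PPP1CA between 0.64 and 0.92 in all alternatives. Reversed signs in CAL-62 were, under the sum of reads, EIF2AK2 -0.24, EIF2AK3 -0.27, EIF2AK4 -0.14, PPP1CB -0.17 and PPP1CC -0.39, under upper quartile scaling EIF2AK2 -0.029, EIF2AK3 -0.081 and PPP1CC -0.17, and under ribosomal protein genes EIF2AK1 -0.32, EIF2AK2 -0.73, EIF2AK3 -0.68, EIF2AK4 -0.64, EIF2S1 -0.46, PPP1CA -0.12, PPP1CB -0.67 and PPP1CC -0.90. In BCPAP they were EIF2AK1 -0.10, EIF2AK2 -0.074 and PPP1CC -0.033 (sum of reads), EIF2AK1 -0.038 and EIF2AK2 -0.011 (upper quartile), and EIF2AK1 -0.15, EIF2AK2 -0.11, EIF2S1 -0.041 and PPP1CC -0.082 (ribosomal protein genes). In the difference of responses they were EIF2AK2 -0.17 (sum of reads) and -0.018 (upper quartile), and EIF2AK1 -0.17, EIF2AK2 -0.62, EIF2AK4 -0.29, EIF2S1 -0.42 and PPP1CA -0.21 (ribosomal protein genes). Between the lines they were PPP1R15B 0.082 (sum of reads), and EIF2AK1 0.079, PPP1CB 0.042 and PPP1R15B 0.36 (ribosomal protein genes).

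Leaving out 1 library turned signs within these ranges. In CAL-62, EIF2AK2 ran from -0.13 to 0.47, EIF2AK3 from -0.40 to 0.57, PPP1CC from -0.14 to 0.22 and ATF3 from -1.24 to 0.25. In BCPAP, EIF2AK1 ran from -0.062 to 0.21, EIF2AK2 from -0.29 to 0.49, EIF2AK4 from -0.37 to 0.11, EIF2S1 from -0.00074 to 0.38 and PPP1R15B from -0.27 to 0.23. In the difference of responses, EIF2AK2 ran from -0.32 to 0.46, EIF2AK3 from -0.72 to 0.24, PPP1CB from -0.35 to 0.12 and PPP1CC from -0.29 to 0.068. Between the lines, EIF2AK3 ran from -0.15 to 0.16 and PPP1R15B from -0.20 to 0.15. The cause of these reversals was not tested. Where leaving out a library left 1 in a group, that library was assumed to vary like the others.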
